A study of Mus musculus with 8 samples.

Results

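Of the 49585 rows of the count table, 9 are the actin, adhesion and caveola genes described here: Cav1, Cav2, Tes, Capza2, Wasl, Tln1, Flnc, Tmod1 and Sdc2. They were listed by symbol, with earlier results of these data known, and each row was found through its Ensembl gene identifier. Messenger RNA was measured in 8 libraries of mouse MA9 leukemia cells of bone marrow origin, where MA9 usually stands for the oncogenic fusion MLL-AF9. In 4 libraries (Gata2 f/f) the alleles of Gata2, a zinc finger transcription factor gene of blood stem and progenitor cells, were flanked by recombination sites, and in 4 libraries (Gata2 KO) Gata2 had been deleted. Both genotypes carried MA9 and grew in IMDM with serum (15% FBS) and the cytokines SCF at 20 ng/mL, IL-6 at 10 ng/mL and IL-3. The labels used here give neither the way nor the time of recombination. They leave unsaid if the replicates were different animals, leukemias or cultures, and every p-value below therefore rests on the spread among these libraries alone, which may be technical.

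Library totals ranged from 1610369 to 6237748 counts, so that 3 counts, the limit that a count of 0 allows for counting error only, equal 0.481 to 1.86 CPM, the count of a row per 1000000 counts of its library. The libraries numbered 4 stood apart from the others of their genotype. Calls of the 9 genes and of the related lists that were gained or lost without both are given beside the genes below. Many rows in this table carry names that do not match what was counted. Of 371 genes used by every cell that lie outside 3 chromosome segments, 263 (70.9%) had under 1 CPM. Inside the segments, 14 of 14 such genes had at least 20 CPM. The segments were chosen with earlier results of these data known, and they begin at such genes (Rps20, Ndufa4 and Cct5). Those of chromosomes 6 and 15 also end at such genes (Ube2h and Atp6v1c1). The 14 of 14 therefore cannot be read as an independent test of the row names inside the segments. All 9 genes lie in the segments, which span 3.8 to 49.5 Mb of chromosome 4, 11.9 to 30.3 Mb of chromosome 6 and 31.6 to 38.7 Mb of chromosome 15 (GRCm38) and hold 978 rows. For 8 of the 9 genes the name was trusted because ubiquitous genes lie on either side, with no check of each gene. These can be far away: Cav2 lies 5374 kb from Ndufa4 and 7230 kb from Ndufa5. Cav1, Tes and Capza2 lie between the same ubiquitous genes. Tmod1 lies 931 kb beyond Tomm5, the last such gene of the chromosome 4 segment, so its name is less supported, as are those of Hemgn, Coro2a, Tbc1d2, Tgfbr1, Stx17 and Cavin4, which lie beyond it too. Gata2 lies outside the segments and its row held 4 counts in all, 2 for either genotype, so it checks no label.

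Actin filaments grow at their barbed ends, are branched by the Arp2/3 complex, and are stopped by capping proteins at either end. Talin, filamins and LIM-domain proteins tie these filaments to integrins at adhesion sites, where syndecans act as co-receptors for matrix. Caveolae are flask-shaped pits of the plasma membrane built from caveolins and cavins, are abundant in endothelium, fat and muscle, and are scarce in most blood cells. Caveolin-2 is known to need caveolin-1 to reach the cell surface in many cell types.

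Cav2 was the single gene of the 9 that passed the test between genotypes, and it was higher without Gata2, at 80.6 ± 20.6 CPM (SD, n = 4) against 37.6 ± 7.34 CPM (SD, n = 4) with floxed Gata2. Cav1, its neighbour on chromosome 6 and its partner in caveolae, was at the detection limit in both genotypes. Tes and Tln1, which encode adhesion proteins, were higher in Gata2 KO in each of the 4 pairs of libraries with the same replicate number. So were Cav2 and Capza2, and 22.9% of all rows tested. Tes and Tln1 passed the test when that number was used as a block, where 18.8% of all rows were called higher, but not with genotype alone. Both also passed with genotype alone under some other settings, given beside their values. Capza2 and Wasl, which act on actin filaments, did not pass in either model, and Sdc2 was seen in the Gata2 f/f libraries alone, at a low level.

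Cav2 (chr6:17281185-17289115, plus strand, 3 exonic blocks) starts 25 kb before Cav1 (chr6:17306335-17341452, plus strand), and Capza2 (chr6:17636234-17666972, plus strand) starts 355 kb after Cav2. The promoter windows of these neighbours are shown because Cav2 passed the test, Capza2 did not, and Cav1 had too few counts to be tested. Each window runs from 250 bases before to 50 bases after a RefSeq start site of GRCm38.p6, 5′ to 3′ on the coding strand. Capitals mark any of the 4 GATA motif spellings searched on both strands (the spelling AGATAA, the spelling AGATAG, the spelling TGATAA and the spelling TGATAG).
Cav2 (chr6:17280935-17281234): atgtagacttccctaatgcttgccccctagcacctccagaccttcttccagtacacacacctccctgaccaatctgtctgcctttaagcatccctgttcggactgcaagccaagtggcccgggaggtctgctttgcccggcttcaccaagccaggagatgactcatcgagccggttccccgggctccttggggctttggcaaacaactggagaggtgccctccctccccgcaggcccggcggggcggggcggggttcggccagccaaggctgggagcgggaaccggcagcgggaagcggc
Cav1, first start site (chr6:17306085-17306384): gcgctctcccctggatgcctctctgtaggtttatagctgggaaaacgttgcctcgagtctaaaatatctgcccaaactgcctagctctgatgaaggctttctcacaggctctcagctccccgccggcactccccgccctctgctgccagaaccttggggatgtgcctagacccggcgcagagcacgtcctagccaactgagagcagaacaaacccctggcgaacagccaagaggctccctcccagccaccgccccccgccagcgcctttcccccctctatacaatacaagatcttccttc
Cav1, second start site (chr6:17307390-17307689): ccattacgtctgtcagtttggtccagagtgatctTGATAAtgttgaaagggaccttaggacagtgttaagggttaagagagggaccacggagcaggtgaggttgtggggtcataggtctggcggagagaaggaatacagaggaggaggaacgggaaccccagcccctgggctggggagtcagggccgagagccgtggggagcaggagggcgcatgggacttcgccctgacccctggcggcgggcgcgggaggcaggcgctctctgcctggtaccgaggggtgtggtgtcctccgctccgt
Capza2 (chr6:17636760-17637059): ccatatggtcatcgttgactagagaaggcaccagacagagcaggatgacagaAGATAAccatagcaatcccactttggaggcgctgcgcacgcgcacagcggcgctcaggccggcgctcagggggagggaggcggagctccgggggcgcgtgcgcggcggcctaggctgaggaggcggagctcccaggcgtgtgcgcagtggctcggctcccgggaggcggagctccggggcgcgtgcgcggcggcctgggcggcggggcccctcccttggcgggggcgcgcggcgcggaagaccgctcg
The window of Cav2 holds none of the 4 spellings. The second window of Cav1 holds TGATAA at position -216 from its start site, and the window of Capza2 holds AGATAA at position -198. RefSeq windows were matched for 8 of the 9 genes, 10 windows in all, and the other 7 windows, with that of Cav2, hold none. In comparison, 9773 of 32817 promoter windows of the same length (29.8%) hold at least one of the spellings. The CArG box, a motif of serum response factor that many actin genes carry, was in none of the 10 windows and in 1.63% of all windows. A match describes letters in a window and not binding, which was not measured.

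Cav2 measured 41.5, 41.6, 40.8 and 26.6 CPM in Gata2 f/f replicates 1 to 4. In Gata2 KO replicates 1 to 4 it measured 101, 89.4, 79.7 and 52.6 CPM. The lowest Gata2 KO library, replicate 4, lay above every Gata2 f/f library, so the genotypes did not overlap. Of all rows tested, 10.8% were arranged in this way, and 8.97% passed as higher in Gata2 KO. The log2 fold change of Cav2 was 1.13 ± 0.25 (SE, edgeR quasi-likelihood test, adjusted p = 0.0109, n = 4 and 4), a fold of 2.19 with an approximate 95% interval of 1.57 to 3.06. Within replicate numbers 1 to 4 the difference was 1.26, 1.09, 0.95 and 0.95 on the log2(CPM + 1) scale. Leaving out each library in turn kept the adjusted p between 0.000609 and 0.0394. In bulk RNA, a change in the number of cells that express Cav2 and a change in RNA per cell cannot be told apart.

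Cav1 had 1 count in 1 of the 8 libraries, Gata2 KO replicate 3, and 0 in the other 7. No fold is given for it, since both genotypes were at or under the floor of 3 counts. Cavin4, a muscle cavin that lies in the chromosome 4 segment, had 3 counts in all. Of 9 other caveola genes looked up by name, Cavin4 included, 6 had under 1 CPM, and outside the segments such names cannot be read as genes.

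**Figure D1:**
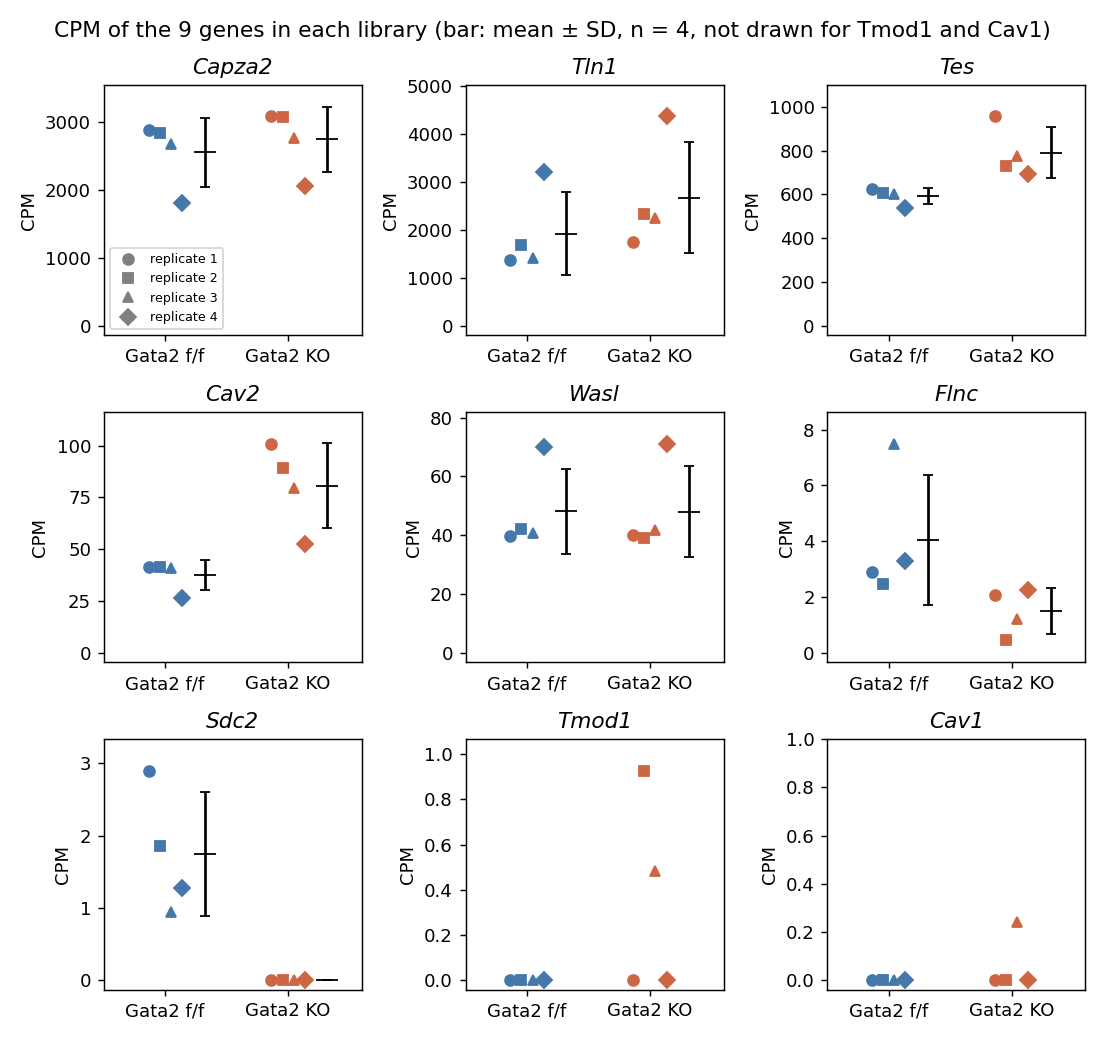
CPM (vertical axes, linear, 1 scale per gene) of the 9 genes in each library, with Gata2 f/f at left and Gata2 KO at right in each panel, marker shapes for replicate numbers and a bar for the mean ± SD of 4 libraries (not drawn for Tmod1 and Cav1). The Cav2 points of Gata2 KO, 52.6 to 101, lie above those of Gata2 f/f, 26.6 to 41.6, while Sdc2 is at 0 in the 4 Gata2 KO libraries.

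Among the adhesion genes, Tes (chr6:17065149-17105828, plus strand, 10 exonic blocks) encodes testin, a LIM-domain protein of focal adhesions and actin stress fibres. Its level was 623, 607, 601 and 537 CPM in Gata2 f/f replicates 1 to 4 and 956, 731, 775 and 694 CPM in Gata2 KO replicates 1 to 4. The genotypes did not overlap, as in 10.8% of all rows tested with Gata2 KO above. The means were 592 ± 37.7 and 789 ± 116 CPM (SD, n = 4 each). The log2 fold change was 0.43 ± 0.14 (SE), which missed the threshold with genotype alone (edgeR, adjusted p = 0.0703) and passed it with the replicate number as a block (0.42 ± 0.06, adjusted p = 4.49e-05). Without Gata2 KO replicate 4, Tes also passed with genotype alone (0.52, edgeR, adjusted p = 0.0235). It did so without both libraries numbered 4 too (0.45, adjusted p = 0.00432). Genotype alone also gave a call with library totals (adjusted p = 0.0325), TMM on segment rows (0.0181) and no filter (0.0191). With any other single library left out Tes did not pass (0.0743 to 0.177), nor did it by DESeq2 (0.0785). Tes shares 144 exonic bases with Gm4876 on the other strand, and the library kit does not mark strand.

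Tln1 (chr4:43531519-43562691, minus strand, 59 exonic blocks) encodes talin-1, which joins integrin tails to actin and switches integrins to their active form. It measured 1367, 1689, 1414 and 3192 CPM in Gata2 f/f replicates 1 to 4, and 1749, 2334, 2234 and 4359.6 CPM in Gata2 KO replicates 1 to 4. The libraries numbered 4 were the highest of each genotype, and the genotypes overlapped because Gata2 f/f replicate 4 lay above Gata2 KO replicates 1 to 3. With genotype alone the log2 fold change was 0.50 ± 0.28 (SE, edgeR, adjusted p = 0.306). With the block it was 0.50 ± 0.06 (adjusted p = 7.56e-06), and the differences within replicate numbers 1 to 4 were 0.36, 0.47, 0.66 and 0.45 on the log2(CPM + 1) scale. Without Gata2 f/f replicate 4 the value was 0.81 (adjusted p = 0.0263 with genotype alone), and without Gata2 KO replicate 4 it was 0.2 (adjusted p = 0.625). Without both libraries numbered 4 it was 0.53 (adjusted p = 0.00164). With no filter Tln1 passed too (0.52, edgeR, adjusted p = 0.00203). It did not pass with library totals (adjusted p = 0.397), TMM on segment rows (0.436) or DESeq2 (0.332). Tln1 shares 360 exonic bases with Creb3, a gene on the other strand that went from 88.3 CPM with Gata2 to 161 CPM without it, and the share of such reads in Tln1 was not tested.

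With the block, 3 of the 5 tested genes (Cav2, Tes and Tln1) passed as higher in Gata2 KO and 0 as lower, beside 18.8% and 16.7% of all rows tested, of which 1237 were higher and 1102 lower. Cav2, Tes, Tln1 and Capza2 were higher in Gata2 KO in all 4 pairs of equal number, as were 22.9% of all rows tested. The median log2 fold change of the 5 tested genes was 0.43, compared with -0.01 over the 6580 rows. The other 4 genes had too few counts for the main test, so no statement on the 9 genes as a set follows from these figures.

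**Figure D2:**
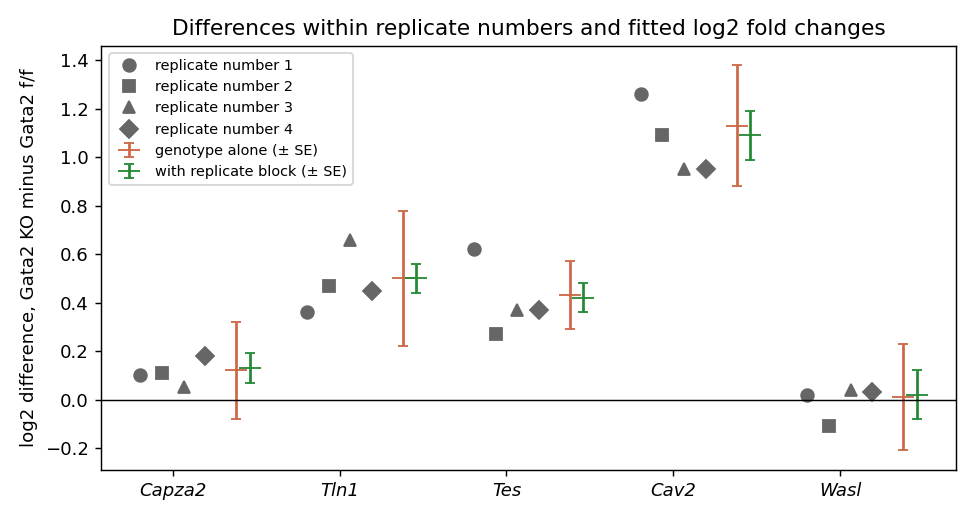
Log2 difference, Gata2 KO minus Gata2 f/f (vertical axis), for the 5 tested genes (horizontal axis): grey points are the 4 pairs of equal replicate number on the log2(CPM + 1) scale, and crosses are fitted log2 fold changes ± SE with genotype alone (orange) or with the replicate block (green). The SE of Tln1 is 0.28 without and 0.06 with the block around the same value of 0.50, and the Wasl points lie between -0.11 and 0.04.

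Sdc2 (chr15:32920723-33034935, plus strand, 5 exonic blocks) encodes syndecan-2, a heparan sulfate proteoglycan of the cell surface that binds matrix and growth factors. It had 6, 3, 2 and 7 counts in Gata2 f/f replicates 1 to 4 and 0 in each Gata2 KO library. Pooled over Gata2 f/f this was 1.59 CPM, whereas 3 counts over the 4 Gata2 KO libraries equal 0.207 CPM. The ratio of these values is 7.69. It leaves out the counting error of the 18 Gata2 f/f counts, so it is no strict lower limit of the fold. The difference in CPM had a two-sided exact permutation p of 0.0286, the smallest that 70 groupings of 8 libraries give. Any row whose genotypes do not overlap reaches this p, and 2.36% of the rows with any count had Gata2 KO below in this way. Of 1744 rows with 12 to 27 counts in all, 2 (0.115%), one of which was Sdc2, had 0 in all 4 Gata2 KO libraries, and 3 (0.172%) had 0 in all 4 Gata2 f/f libraries. Sdc2 did not pass the filter on low counts, and in a fit of all 27960 rows with any count it was called lower (edgeR, adjusted p = 0.000805), as were 0.651% of those rows, while Cav2, Tes and Tln1 were called higher, as were 2.5%. Leaving out each library in turn in that fit gave adjusted p-values of 0.000908 to 0.0131.

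Flnc (chr6:29433256-29461883, plus strand, 48 exonic blocks) encodes filamin C, the muscle form of a family that cross-links actin and binds integrin tails. It had 6, 4, 16 and 18 counts in Gata2 f/f replicates 1 to 4 and 4, 1, 5 and 14 in Gata2 KO replicates 1 to 4, or 2.9, 2.48, 7.5 and 3.28 CPM against 2.06, 0.463, 1.21 and 2.24 CPM. The genotypes did not overlap, with Gata2 KO below, as in 2.36% of the rows with any count. Without the filter its log2 fold change was -1.29 ± 0.51 (SE, edgeR, adjusted p = 0.22), and with the block -1.26 (adjusted p = 0.0184). Without Gata2 f/f replicate 3, the highest library, it was -0.91 (adjusted p = 0.61).

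Of the genes that act on actin filaments, Capza2 encodes an alpha subunit of capping protein, which binds barbed ends and stops their growth. It was abundant in every library, at 2882, 2844, 2686 and 1810.4 CPM in Gata2 f/f replicates 1 to 4 and 3087, 3073, 2774 and 2054 CPM in Gata2 KO replicates 1 to 4. The genotypes overlapped, and the libraries numbered 4 were the lowest of each. The log2 fold change was 0.12 ± 0.20 (SE, edgeR, adjusted p = 0.787), with 0.13 ± 0.06 under the block (adjusted p = 0.087). Within pairs the difference lay between 0.05 and 0.18, and without Gata2 f/f replicate 4 the fitted value was -0.04.

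Wasl (chr6:24613805-24665009, minus strand, 13 exonic blocks) encodes N-WASP, which activates the Arp2/3 complex downstream of Cdc42. It measured 39.6, 42.2, 40.8 and 69.9 CPM in Gata2 f/f replicates 1 to 4 and 40.2, 38.9, 41.9 and 71.2 CPM in Gata2 KO replicates 1 to 4. The values of equal number were close to one another, and the libraries numbered 4 were the highest of each genotype. The log2 fold change of Wasl was 0.01 ± 0.22 (SE, edgeR, adjusted p = 0.985), a fold of 1.01 with an approximate 95% interval of 0.752 to 1.35. Its sign changed under several settings, with values from -0.22 to 0.23 when each library was left out in turn.

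Tmod1 (chr4:46038935-46116032, plus strand, 14 exonic blocks) encodes tropomodulin-1, which caps pointed ends in the red cell membrane skeleton and in muscle. It had 4 counts in all, 2 each in Gata2 KO replicates 2 and 3, and 0 in the other 6 libraries. Hemgn, an erythroid gene of the same stretch, had 7 counts in all. No ubiquitous gene lies beyond them in the segment, so these low counts carry less weight than those of Cav1. Tmod1 shares 1287 exonic bases with Tstd2 on the other strand, so even these counts cannot be given to it with certainty.

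Levels between genes were compared as CPM per kb of exon, using the union of GENCODE M21 exons. Capza2 stood at 434 and 466 CPM per kb, Tln1 at 195 and 272, Tes at 86.6 and 115, Cav2 at 11.3 and 24.2, and Wasl at 7.81 and 7.79, each as the mean of Gata2 f/f and then of Gata2 KO. Sdc2 and Flnc followed at 0.494 and 0.43 CPM per kb in Gata2 f/f. Capza2 was above Tln1 in the libraries numbered 1 to 3 of both genotypes, whereas Tln1 was above Capza2 in both libraries numbered 4. Cav2 was above Wasl in 7 of the 8 libraries, the exception being Gata2 f/f replicate 4. Flnc and Sdc2 changed places between Gata2 f/f libraries, so their order does not hold beyond their spread.

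Tes, Cav2 and Capza2 lie within one stretch of chromosome 6, and their ratios within a library do not depend on scaling. The 3 ratios were chosen after the data were seen, which the adjusted p-values below do not allow for. The log2 ratio of the Cav2 count to the Capza2 count, with 1 added to each, was -6.07 ± 0.03 in Gata2 f/f and -5.11 ± 0.15 in Gata2 KO (SD, n = 4 each). The difference of 0.96 had a two-sided exact permutation p of 0.0286 (0.0429 adjusted over the 3 ratios compared), the smallest p that 70 groupings give. The Gata2 f/f ratios lay between -6.10 and -6.03, so Cav2 and Capza2 moved together across those 4 libraries, replicate 4 included. The ratio of Cav2 to Tes rose by 0.67, from -3.98 ± 0.23 to -3.31 ± 0.29 (SD, n = 4 each, exact permutation p = 0.0286, adjusted 0.0429). For Tes to Capza2 the difference was 0.30 (exact permutation p = 0.0857, adjusted 0.0857). Each ratio was higher in Gata2 KO in 4 of 4 pairs, for which swapping genotypes within pairs allows no p under 0.125.

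Other protein-coding genes around Cav2 gave differing values. Tfec, a transcription factor gene of the MiT family that starts 448 kb before Cav2, rose from 1107 to 1624 CPM (log2 fold change 0.57 ± 0.14 SE, edgeR, adjusted p = 0.0231). Met, which encodes the receptor of hepatocyte growth factor and lies between Cav1 and Capza2, had a log2 fold change of -0.22 ± 0.17 (adjusted p = 0.471) and a value of -0.26 with the block (adjusted p = 0.0308). Without both libraries numbered 4 the value of Met with the block was -0.16 (adjusted p = 0.301), so that call was lost. St7, beside Capza2, had a value of 0.10 ± 0.11 (adjusted p = 0.638). Wnt2, Asz1, Cftr and Cttnbp2, farther along the chromosome, had 0 to 19 counts each.

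**Figure D3:**
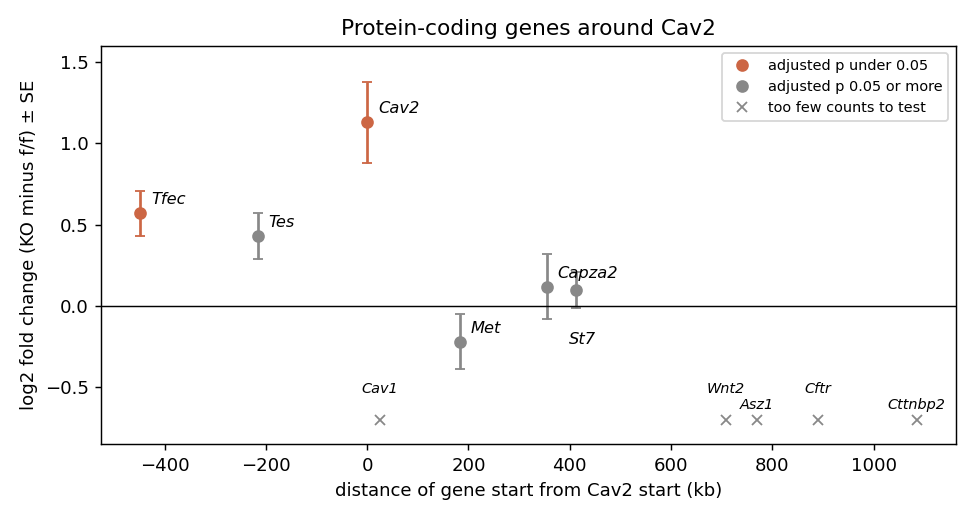
Fitted log2 fold change ± SE, Gata2 KO minus Gata2 f/f (vertical axis), of protein-coding genes by the distance of their start from that of Cav2 in kb (horizontal axis). Orange points, Tfec at 0.57 and Cav2 at 1.13, had an adjusted p under 0.05, grey points did not, and crosses are genes with too few counts to test, drawn at an arbitrary height.

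Related genes of the same segments were taken from 3 lists. Of 10 genes that bind or regulate actin, 3 had enough counts for the test and 1 rose, Tesk1, a kinase of cofilin, from 27.2 ± 1.30 to 42.1 ± 4.64 CPM (SD, n = 4 each). Its log2 fold change was 0.65 ± 0.14 (SE, edgeR, adjusted p = 0.011), and 8.97% of all rows tested were called higher in Gata2 KO. The genotypes did not overlap, at 25.8 to 28.6 against 37.1 to 48.2 CPM, as in 10.8% of all rows tested with Gata2 KO above. Coro2a, a coronin and the most abundant gene of that list, stood at 372 ± 84.9 and 328 ± 54.7 CPM (adjusted p = 0.555).

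Of 15 genes for adhesion, matrix and their receptors, 14 lay in the segments, 8 were tested, and 0 passed with genotype alone. With the block 4 rose: Sdcbp, which encodes syntenin, a binder of syndecan tails, Shb, an adaptor of receptor kinases, Tgfbr1, the type I receptor of TGF-beta, and Matn2, a matrix protein, where 18.8% of all rows were called higher and 16.7% lower. Without both libraries numbered 4 the call of Matn2 was lost (0.56 with the block, adjusted p = 0.116 against 0.0493 with all libraries). With genotype alone, Sdcbp (0.47, edgeR, adjusted p = 0.000775), Shb (0.77, 0.0102) and Tgfbr1 (0.29, 0.0258) then passed. In that fit 22.1% of all rows were called in either direction. Sdcbp was the most abundant, at 3155 ± 548 and 4256 ± 837 CPM (SD, n = 4 each, log2 fold change 0.44 with the block, edgeR adjusted p = 1.66e-05). Shb had the largest value of the list, 0.73 ± 0.22 (SE, edgeR, adjusted p = 0.0553 with genotype alone and 0.000114 with the block). Met was the 1 gene of the list called lower with the block, a call lost without the libraries numbered 4 as given above.

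The third list held 6 genes of membrane coats and traffic, of which 5 were tested and 0 passed with genotype alone. With the block 4 rose, namely Clta (clathrin light chain A), Arf5 (a small GTPase of the Golgi), Tbc1d2 (a Rab7 GTPase-activating protein) and Chmp5 (a subunit linked to ESCRT-III), and Rab2a, a GTPase of traffic between endoplasmic reticulum and Golgi, fell, beside the same 18.8% and 16.7% of all rows. Arf5 went from 572 ± 48.6 to 749 ± 90.5 CPM and Clta from 2862 ± 153 to 3391 ± 128 CPM (SD, n = 4 each). Neither gene overlapped between the genotypes, nor did Chmp5, at 282 to 326 against 348 to 396 CPM. Of all rows tested, 10.8% did not overlap with Gata2 KO above. Rab2a went from 1313 ± 70.1 to 1103 ± 83.3 CPM. Without both libraries numbered 4, Arf5 (0.42, edgeR, adjusted p = 0.00429), Clta (0.26, 0.0369), Chmp5 (0.29, 0.0387) and Tbc1d2 (0.30, 0.0399) passed with genotype alone. Rab2a did not (-0.25, adjusted p = 0.0598), and 22.1% of all rows were called in either direction. Over the 3 lists, 16 genes were tested, with 1 higher and 0 lower with genotype alone, and 9 higher and 2 lower with the block. Of all rows tested, 8.97% were called higher with genotype alone, and 18.8% higher and 16.7% lower with the block, so that 1 of 16 with genotype alone is near the share of all rows. Their median log2 fold change was 0.26, and 9 of the 30 listed genes in the segments had 8 counts or fewer.

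**Figure D4:**
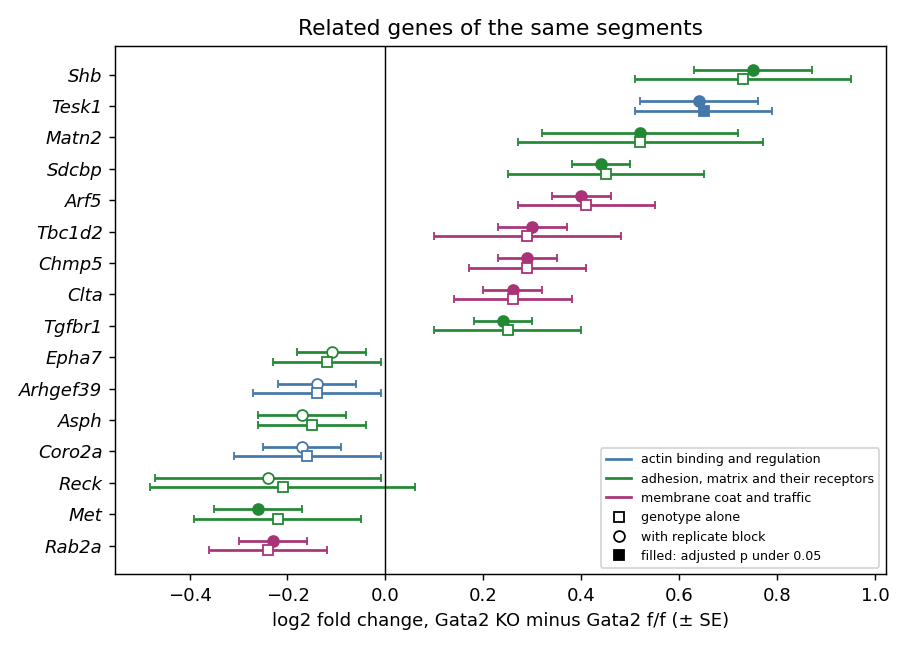
Fitted log2 fold change ± SE, Gata2 KO minus Gata2 f/f (horizontal axis), of the 16 tested genes of the 3 related lists (vertical axis, coloured by list), with squares for genotype alone, circles for the replicate block and filled symbols for an adjusted p under 0.05. Tesk1 alone has a filled square, at 0.65, and 11 genes have filled circles, 9 to the right of 0 and 2 to the left.

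The rows most like each gene across the 8 libraries, among 249 rows of the segments with a mean of at least 5 CPM, are given as a description, since the libraries share genotype, replicate number and depth. For Cav2 they were Tfec (Pearson r = 0.963 of log2(CPM + 1)) and Clta (0.956), and for Tes they were Arf5 (0.976) and Creb3 (0.96). For Tln1 they were Vps13b (0.959) and Stx17 (0.936), and for Capza2 Smim8 (0.938) and Azin1 (0.937). The rank correlations of Capza2 were 0.905 with Smim8 and 0.69 with Azin1, and its libraries numbered 4 were the lowest of each genotype. For Wasl the nearest rows were Pnisr (r = 0.985) and Gba2 (0.971), with rank correlations of 0.667 and 0.714, and Wasl itself was set apart by its libraries numbered 4.

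The partners of these genes that lie outside the segments could not be read. By name, 22 of 36 genes of actin nucleation, capping and turnover had under 1 CPM, and so had 20 of 32 genes of talin, filamin and integrin adhesion. Actb, Capzb, Flna and Itgb2 had 10, 5, 4 and 2 counts in all, although these names belong to genes of every cell or of blood cells. For the same reason the marker rows of other cell types carry little meaning. By name, 7 of 14 endothelial and stromal rows had under 1 CPM, and their summed level was 1207 to 1409.6 CPM with Gata2 and 1083 to 1173 CPM without it. The erythroid rows (8 of 9 under 1 CPM) summed to 40.7 to 60.4 and 25.2 to 42.6 CPM, the muscle rows (5 of 7) to 72.9 to 104 and 89.9 to 107 CPM, and the monocyte and macrophage rows (6 of 8) to 4.01 to 5.31 and 4.12 to 9.27 CPM. Their part in the values of Cav2, Tes, Flnc and Sdc2 was not tested.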

How the data were processed

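Per the labels' protocols, poly(A) RNA was read as 65 bp pairs with a kit that does not mark strand. The deposited values are raw counts for each Ensembl gene in 8 libraries. The submitters' processing notes name mm10, kallisto, HTSeq and DESeq2; the tool behind the counts and the annotation are, in the sources used here, not given. Symbols came from the gene name table (49326 rows matched), and coordinates and exons from GENCODE M21 (GRCm38), matched without identifier version. The members, lists and segments were chosen with earlier results of these data known.

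Counts were tested in edgeR 4.0.16 (R 4.3.3) with TMM scaling, the filter by genotype with a minimum count of 10 (6580 rows left) and a quasi-likelihood F-test of genotype. A call needed a Benjamini-Hochberg adjusted p under 0.05 across all tested rows. Positive fold changes mean higher in Gata2 KO, and intervals use a normal approximation to the SE on the log2 scale. CPM uses the library total. The fit was tested on simulated counts with 200 changed rows. Alternatives were the replicate number as a block, no filter, library totals, TMM on segment rows, DESeq2 1.42.0, and leaving out each library or both numbered 4. The ratio tests and the unfiltered fits of Sdc2 and Flnc beyond the planned one were chosen after seeing the data.

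Replicate numbers come from the sample titles. Deviations from the genotype means correlated at 0.333, 0.213, 0.243 and 0.804 for equal numbers 1 to 4. All were over 0.1, so libraries of equal number were treated as pairs. Unequal numbers among 1 to 3 correlated at 0.0948 to 0.182, mostly over 0.1 too, so that limit does not tell pairs apart there. The calls with the block rest on this pairing, and no label says what libraries of equal number share.

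All 9 genes are named. Of the related lists, genes past the threshold in either model and the most abundant gene are named. For genes at 5 CPM or more, the 2 most similar rows are named. Genes near Cav2, Creb3, Cavin4 and Hemgn were named after their values were seen.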

Additional observations from a re-analysis of the deposited data

Results flagged for a closer look

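Of 38 genotype groups of 4 libraries checked, 7 had 1 library far from the other 3, where chance gives about 1 in 20, and 5 of the 7 were libraries numbered 4. Cav2 was lowest in Gata2 f/f replicate 4, at 26.6 CPM. Wasl was highest in the libraries numbered 4 of both genotypes, at 69.9 CPM (Gata2 f/f) and 71.2 CPM (Gata2 KO). Sdcbp was lowest in Gata2 f/f replicate 4 (2342 CPM) and Tbc1d2 highest there (284 CPM). Flnc was highest in Gata2 f/f replicate 3, at 7.5 CPM, a value from 16 counts. Rab2a was highest in Gata2 KO replicate 2, at 1226 CPM.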

How the results depend on the processing

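Cav2 kept its call and direction in all 15 alternatives, with log2 fold changes of 0.93 to 1.33. The number of the 9 genes that passed was 1 with genotype alone, 3 with the replicate block, 4 with no filter (Cav2, Tes and Tln1 higher, beside 2.5% of all rows, and Sdc2 lower), 2 with library totals, 2 with TMM on segment rows, 3 without both libraries numbered 4, 3 with the block and without both, and 1 to 2 with each library left out. The number of related genes that passed was 1, 11 with the replicate block, 4 with no filter, 2 with library totals, 3 with TMM on segment rows, 2 by DESeq2, 8 without both libraries numbered 4, 9 with the block and without both, and 1 to 3 with each library left out. The share of all rows called in either direction was 12.5% with genotype alone, 35.5% with the block, 3.15% with no filter, 12.8% with library totals, 11.7% with TMM on segment rows, 10.9% by DESeq2, 22.1% without both libraries numbered 4, 26.5% with the block and without both, and 8.18% to 16.5% with each library left out. Tes passed with the replicate block (0.42), no filter (0.45), library totals (0.41), TMM on segment rows (0.44), without both libraries numbered 4 (0.45) and with the block besides (0.44), and ranged from 0.31 to 0.52 with each library left out. Tln1 passed with the replicate block (0.50), no filter (0.52), without both libraries numbered 4 (0.53) and with the block besides (0.52), and ranged from 0.20 to 0.81. Flnc passed only with no filter and the block (-1.26). Capza2 ranged from -0.04 to 0.26 and Wasl from -0.22 to 0.23 with each library left out, and Wasl was -0.01 with library totals and -0.01 by DESeq2. The ratios of Cav2 to Tes and to Capza2, by exact permutation tests, were 0.67 and 0.96 with genotypes swapped within pairs, 0.69 and 1.02 without both libraries numbered 4, and 0.55 to 0.80 and 0.90 to 1.02 with each library left out, designs too small to pass the threshold. The ratio of Cav2 to Cav1 was not computed because Cav1 had 1 count in all. The cause of these changes was not tested. Low counts limit Cav1, Tmod1, Sdc2 and Flnc.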
